A study of Mus musculus with 14 samples.

Results

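Cornified envelope precursors are the proteins that a dying keratinocyte cross-links under its plasma membrane, and 51 mouse genes were taken here as this group. The rule took every gene whose symbol begins with Sprr or Lce, together with Flg, Flg2, Hrnr, Rptn, Tchh, Tchhl1, Lor, Ivl, Crct1, Crnn, Cnfn and the cross-linking enzymes Tgm1, Tgm3 and Tgm5. The rule itself reads gene names only, but the group was chosen with earlier results of these data known. The group holds 16 Sprr genes, 21 Lce genes (14 Lce1, 6 Lce3 and Lce6a), 7 fused S100 genes, 4 genes outside these families and 3 transglutaminases. Of these, 50 were among the 27179 genes of the keratinocyte table and 50 among the 24411 genes of the epidermis table. Lce1j was matched only in the epidermis table and Flg only in the keratinocyte table.

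RNA came from newborn mice of 2 genotypes. The p63alpha control was Trp63-Ex13fl/fl, which carries floxed Trp63 alleles and no Cre in its label. The p63beta genotype was KRT14-Cre; Trp63-Ex13fl/fl, so both groups carry the floxed alleles and the Cre, driven by the KRT14 promoter, acts in KRT14-expressing cells. Cultured primary keratinocytes in low-calcium medium, isolated from newborn epidermis, gave 3 libraries per genotype, and epidermis parted from the dermis with trypsin gave 4 per genotype. The comparison in each system asks whether replacing the alpha ending of p63, a transcription factor of stratified epithelia, with the beta ending goes with other levels of these genes. Whether the libraries are separate animals is not in the labels, and the p-values therefore cover only library-to-library spread, which may be technical. In such bulk samples, fewer cells of a type and less RNA per cell cannot be told apart.

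As keratinocytes leave the basal layer they stop dividing, and in the granular layer they make the envelope. Involucrin (Ivl) is laid down early as a scaffold, loricrin (Lor) makes up most of the protein mass of the mature envelope, and the small proline-rich proteins (Sprr) bridge other precursors. Late cornified envelope proteins (Lce) are added last, filaggrin-type fused S100 proteins bundle keratin or join the envelope, and transglutaminases form the bonds between them. Most of these genes lie side by side in the epidermal differentiation complex. Of the 51 genes, 47 lay on chromosome 3 between positions 92080271 and 93471980 (GRCm38.p6, RefSeq). Cnfn lay on chromosome 7, Tgm1 on chromosome 14, and Tgm3 and Tgm5 on chromosome 2.

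Depth ran from 20688027 to 30066041 read pairs per keratinocyte library and from 21290068 to 44909629 estimated counts per epidermis library. Krt5, a basal keratin, was at 12315 to 19995 CPM (counts scaled to the depth of the library) in the keratinocyte libraries and Krt1, a suprabasal keratin, at 2.91 to 12.5 CPM, whereas Krt1 reached 37507 to 72000 CPM in epidermis. Several libraries stood apart. Both keratinocyte libraries numbered 1 were high in envelope genes. The p63beta keratinocyte library 3 held 10 muscle markers at a summed 3213 CPM, against 75.2 to 252 CPM in the other 5. In epidermis, EP09 and WT3 (p63alpha) and EP12 (p63beta) were low in many of the genes and KO2 (p63beta) was high. Values without 1 of these libraries are given beside several results.

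The sequences upstream of a listed start of 6 of these genes show what the promoters share and where they differ. They are the 150 bases before that start in the RefSeq promoter table (GRCm38.p6), read along the gene's strand. The Tgm1 window lies inside the annotated span of its gene, and those of Ivl and Sprr1b overlap theirs. Capitals mark a match to TGANTCA or to TATAAA, the TATA box. TGANTCA, where N is any base, stands here as a loose form of the motif of AP-1, a factor of differentiating keratinocytes. Sprr2h also holds TGANTCA, at position -198 relative to the gene start, outside the 150 bases shown. Ivl, Sprr2h and Tgm1 are shown because their levels differed most clearly between genotypes in keratinocytes, Lor and Sprr1b because they had the highest levels of their kind in epidermis, and Lce3c because it had the highest Lce level in keratinocytes.
Ivl: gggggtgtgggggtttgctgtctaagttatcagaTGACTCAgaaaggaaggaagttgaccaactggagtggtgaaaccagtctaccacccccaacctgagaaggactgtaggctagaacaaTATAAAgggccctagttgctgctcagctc
Sprr2h: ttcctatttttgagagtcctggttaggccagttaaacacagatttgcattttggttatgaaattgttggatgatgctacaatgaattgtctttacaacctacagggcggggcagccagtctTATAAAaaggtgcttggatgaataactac
Tgm1: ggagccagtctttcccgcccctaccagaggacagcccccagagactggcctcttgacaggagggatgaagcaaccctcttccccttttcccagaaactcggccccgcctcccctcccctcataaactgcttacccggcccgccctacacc
Lor: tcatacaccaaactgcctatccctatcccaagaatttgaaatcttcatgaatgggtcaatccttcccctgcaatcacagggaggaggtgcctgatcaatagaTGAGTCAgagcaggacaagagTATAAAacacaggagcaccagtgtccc
Sprr1b: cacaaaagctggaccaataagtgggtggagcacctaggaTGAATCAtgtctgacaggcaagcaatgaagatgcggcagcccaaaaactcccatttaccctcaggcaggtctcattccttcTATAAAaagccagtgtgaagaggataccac
Lce3c: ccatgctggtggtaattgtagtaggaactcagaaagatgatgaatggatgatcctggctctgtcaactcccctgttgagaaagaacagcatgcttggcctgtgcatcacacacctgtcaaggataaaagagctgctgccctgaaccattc
These windows lie at chr3:92573736-92573885 (minus strand) for Ivl, chr3:92385535-92385684 (plus) for Sprr2h, chr14:55713493-55713642 (minus, the first of 2 starts) for Tgm1, chr3:92083143-92083292 (minus) for Lor, chr3:92438780-92438929 (minus) for Sprr1b and chr3:92944336-92944485 (plus) for Lce3c.

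Promoters of 47 of the genes were matched by symbol in that table, 48 windows in all, since Tgm1 has 2. Each full window runs from 250 bases before to 50 after the start. Searched on both strands, TGANTCA was in 16 of the 48 windows (33.3%), against 7.81% of all 32851 promoters in the table. The matches were uneven between families, with 9 of 14 Sprr windows holding TGANTCA and 0 of 20 Lce windows. TATAAA was in 21 of 48 windows (43.8%), against 13.6% of all, and again in more Sprr windows (10 of 14) than Lce windows (4 of 20). The core spacing of a p53 family site was in 21 of 48 windows (43.8%), against 70.2% of all promoters. A match is only a match of letters. The 9 Sprr genes whose windows hold TGANTCA had epidermis log2 fold changes (p63beta over p63alpha) of 0.94 to 2.26, and the 5 without it had -0.07 to 0.74, a split noticed after the values were seen and given with no test. All 9 of these windows also hold TATAAA, and of the 5 others only that of Sprr3 does. The split is thus nearly the same for TATAAA as for TGANTCA. Of those 5, Sprr2a1 and Sprr2a2 are near-identical, and Sprr2a3 shares 61.1% of its transcript stretches of 50 bases with Sprr2a1. Sprr2g and Sprr2j-ps, at 1.41 and 1.85 in epidermis, were not matched in the promoter table and are in neither set. In keratinocytes the 7 tested Sprr genes with the letters ran from -0.92 to 0.09, and the 1 tested without them, Sprr2a3, was at -0.75. Outside the Sprr and Lce families, 6 genes tested in epidermis hold TGANTCA, at -0.75 to 1.53, and 6 do not, at -0.24 to 0.78.

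In cultured keratinocytes no envelope gene passed the test. Of the 50 genes in the table, 35 had enough counts to be tested, and 0 were called at an adjusted p under 0.05 by edgeR's quasi-likelihood test with Benjamini-Hochberg adjustment. Over all 13820 genes tested, 0.101% were called. At an unadjusted p under 0.05 there were 3 envelope genes, against 6.85% of all genes. The 35 tested genes split into 17 higher and 18 lower in p63beta, with a median log2 fold change of -0.02, against -0.00 over all genes, of which 49.7% were higher. Their log2 fold changes ran from -0.92 to 1.47. In 3 of the 35 the groups did not overlap, 1 higher (Ivl) and 2 lower (Tgm1 and Sprr2h), beside 6.51% and 5.8% of all genes (12.3% together). The 15 untested genes are given by their levels. On simulated counts of these libraries, the test recovered 45% of the genes changed 2-fold and 75% of those changed 4-fold. The changed genes were drawn from all tested genes averaging over 1 CPM. The rates are therefore not those of the envelope genes, many of which have wide standard errors.

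The 3 genes without overlap were the early scaffold, the enzyme that cross-links it and 1 of the bridging proteins. Ivl stood at 63.6, 22.0 and 24.1 CPM in p63alpha libraries 1, 2 and 3 and at 132, 78.8 and 93.0 CPM in p63beta libraries 1, 2 and 3. Every p63beta library was above every p63alpha library, and library 1 was the highest within each genotype. The log2 fold change was 1.47 ± 0.46 (SE, n = 3 and 3 libraries), with an adjusted p = 0.575. Tgm1, the membrane-bound transglutaminase of keratinocytes, had 176, 242 and 169 CPM in p63alpha and 96.8, 121 and 112 CPM in p63beta. Its lowest p63alpha library was thus above its highest p63beta library, with a log2 fold change of -0.83 ± 0.17 (SE) and an adjusted p = 0.305. Sprr2h followed the same order, with 151, 139 and 124 CPM in p63alpha against 90.6, 98.9 and 76.5 CPM in p63beta. Its log2 fold change was -0.64 ± 0.12 (SE), with an adjusted p = 0.289.

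The call on these 3 genes differed between methods. When the fit took the number as a block, edgeR's adjusted p was 0.0805 for Ivl, 0.0694 for Tgm1 and 0.0694 for Sprr2h, still 0 called, beside 0.268% of all genes. DESeq2 on the same counts called all 3, with adjusted p = 0.0383 for Ivl, 0.000870 for Tgm1 and 0.000859 for Sprr2h. It called no other envelope gene, beside 1.61% of all genes. It gave no adjusted p for Lce1a1, Rptn, Sprr2e and the Lce3 genes, and the 1.61% counts genes without one as not called. The authors' deposited table lists these same 3 among 25 envelope genes with an adjusted p, beside 1.5% of its genes. Its shrunken log2 fold changes are 0.71 for Ivl, -0.70 for Tgm1 and -0.59 for Sprr2h. Without p63beta library 3, the one with muscle transcripts, edgeR gave log2 fold changes of 1.53 for Ivl, -0.86 for Tgm1 and -0.56 for Sprr2h. The part of those transcripts in the other comparisons was not tested.

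**Figure D1:**
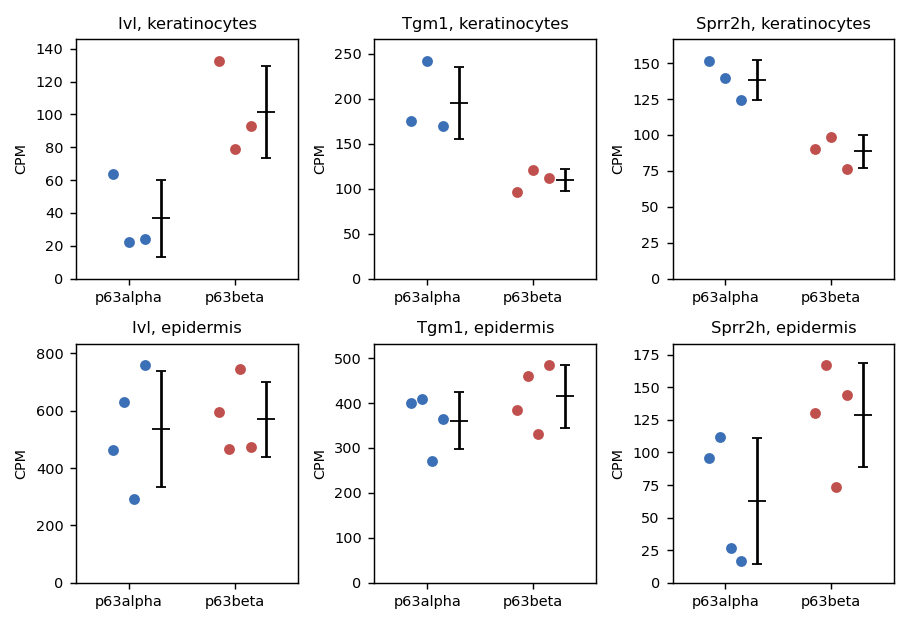
CPM (linear axis from 0) of Ivl, Tgm1 and Sprr2h in keratinocytes (upper row) and epidermis (lower row), 1 point per library with p63alpha blue and p63beta red, and the bar beside each group its mean ± SD. In keratinocytes the groups do not overlap for any of the 3 genes, while in epidermis they overlap for all 3.

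Lor, Crct1 and Cnfn were not called in keratinocytes, and their groups overlapped. Lor was barely present, with 5.69, 2.55 and 2.33 CPM in p63alpha and 5.86, 2.14 and 1.68 CPM in p63beta (log2 fold change -0.13 ± 0.60 SE, adjusted p = 0.988). Library 1 was the highest in both genotypes. Crct1, a small cysteine-rich protein encoded between Lce3f and Lce1m, also had its high libraries at number 1, with 136, 18.8 and 23.6 CPM in p63alpha and 173, 26.6 and 26.4 CPM in p63beta. It was higher in p63beta in all 3 same-numbered pairs, by less than the distance between libraries of 1 genotype (log2 fold change 0.34 ± 1.06 SE). Cnfn, the cornified envelope protein cornifelin, went the other way in all 3 pairs, with 256, 125 and 85.7 CPM in p63alpha and 160, 65.9 and 78.2 CPM in p63beta (log2 fold change -0.62 ± 0.50 SE). Of the 35 tested genes, 8 were higher and 9 lower in all 3 pairs, beside 17.6% and 19.3% of all genes.

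By length-scaled level (FPKM) the Sprr genes led the group in keratinocytes. Sprr1a averaged 491 FPKM over the 6 libraries, Sprr1b 220 FPKM, Cnfn 178 FPKM and Sprr2h 151 FPKM. Sprr1a had 700, 269 and 172 CPM in p63alpha and 919, 128 and 127 CPM in p63beta, so it was higher in p63beta in pair 1 and lower in pairs 2 and 3 (log2 fold change 0.04 ± 0.93 SE). Sprr1b was even across all 6 libraries, at 198, 190 and 136 CPM against 196, 174 and 190 CPM (log2 fold change 0.09 ± 0.15 SE). The 10 tested Sprr genes had 3 higher and 7 lower in p63beta, with a median log2 fold change of -0.40. Sprr2a3 was lower in every p63beta library than in its same-numbered control, with 11.4, 30.2 and 28.6 CPM against 3.67, 21.5 and 16.5 CPM (log2 fold change -0.75 ± 0.66 SE). Sprr2e had the lowest fold change of the family and rested on library 1, at 8.47, 0.531 and 0.475 CPM against 3.39, 0.831 and 0.770 CPM. Sprr2j-ps, annotated as a pseudogene, was at 0.565 to 3.96 CPM.

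The Lce genes split by subfamily in sign, with 0 called. All 6 tested Lce1 genes were higher in p63beta, with a median log2 fold change of 0.47, and all 6 Lce3 genes lower, with a median of -0.39. With the number as a block the medians were 0.49 and -0.47, and again 0 were called. The split changed with single libraries. Without p63alpha library 1 all 6 Lce3 genes were higher in p63beta, with a median of 2.61. Without p63beta library 1, 3 of 6 Lce1 genes were higher, with a median of -0.27. Without p63beta library 2 or 3, 4 of 6 Lce3 genes were higher. The blocked log2 fold change of Lce1g was 1.11 ± 0.32 (SE, edgeR adjusted p = 0.277) and that of Lce3f -0.61 ± 0.20 (SE, edgeR adjusted p = 0.321). Among the Lce1 genes, Lce1g had 7.39, 1.23 and 1.71 CPM in p63alpha and 10.5, 4.67 and 3.40 CPM in p63beta, higher in each pair. Lce1f (4.11, 0.630 and 0.666 against 6.08, 1.31 and 1.12 CPM) and Lce1b (2.37, 1.33 and 1.66 against 4.10, 1.74 and 1.93 CPM) kept that order. Lce1h differed from its neighbours in having no high library 1, with 21.9, 14.5 and 21.7 CPM against 15.8, 25.7 and 24.2 CPM. Lce3c, the Lce gene with the highest level (63.7 FPKM), had 108, 5.21 and 5.09 CPM in p63alpha and 86.4, 5.90 and 4.41 CPM in p63beta (log2 fold change -0.29 ± 1.59 SE). Its libraries of 1 genotype thus differed far more than the genotypes did. Lce3d (34.0, 1.96 and 1.43 against 29.2, 1.27 and 1.26 CPM) and Lce3f (57.7, 2.06 and 2.43 against 41.7, 1.70 and 1.02 CPM) had the same shape. Lce3a and Lce3b, whose fold changes were the lowest of the Lce genes, were at or under 0.431 CPM in all 4 libraries numbered 2 or 3.

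Fused S100 genes and the other transglutaminases were scarce in culture. Tchh, trichohyalin, known from the hair root sheath, had the highest level of the fused S100 genes and was even across libraries, at 16.4, 24.7 and 22.9 CPM against 20.95, 22.3 and 22.9 CPM (log2 fold change 0.05 ± 0.17 SE). Crnn, cornulin, had 4.36, 7.16 and 6.75 CPM in p63alpha and 4.28, 4.43 and 2.70 CPM in p63beta, with overlapping groups. Flg, filaggrin, was at 3.24, 0.663 and 0.571 CPM against 4.98, 0.396 and 0.385 CPM. Rptn, repetin, followed library 1 as Flg did, with 9.80, 0.696 and 0.285 CPM against 6.54, 0.831 and 0.665 CPM. Flg2, Hrnr (hornerin) and Tchhl1 stayed at or under 3.01 CPM in every library. Tgm3, an enzyme of late differentiation and hair, was at 0.285 to 1.54 CPM and Tgm5 at 0.571 to 2.26 CPM.

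In culture the levels of most envelope genes followed the library number. For 37 of the 50 genes, p63alpha library 1 and p63beta library 1 were the 2 highest of the 6 libraries, a pattern found in 21.3% of all genes tested. The 50 include 15 untested genes, while the 21.3% covers tested genes only. In 19 genes, the lower of the 2 libraries numbered 1 was at least 5 times the highest of the other 4. The share of all genes with such a difference was not computed. The summed level of the 6 Lce3 genes was 240 CPM and 189 CPM in the libraries numbered 1 and 8.09 to 11.2 CPM in the rest. For 4 genes the libraries numbered 1 were the 2 lowest, Sprr2a3 among them. Summed over all 50 genes, envelope transcripts made 2111 and 2122 CPM in the libraries numbered 1 and 813 to 1124 CPM in the other 4. The summed level of 10 basal markers was lower in the libraries numbered 1 (27043 and 27428 CPM, against 35407 to 38441 CPM). Most of that sum is Krt5 and Krt14. Of the 10, Krt5, Krt14, Col17a1 and Itgb4 were lowest in both libraries numbered 1, Itgb1 and Krt15 were highest in both, and the others were mixed. The summed level of 10 spinous markers was higher in these libraries (3260 and 2759 CPM, against 1852 to 2411 CPM). Their part in the result was not tested, and the labels give no culture day or batch for a number.

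The median fold change of the tested envelope genes turned with either of these libraries. It was 0.93 without p63alpha library 1, with 28 of 36 tested genes higher in p63beta. Without p63beta library 1 it was -0.77, with 9 of 35 genes higher. With both libraries numbered 1 left out and the number kept as a block, an alternative added after seeing the data, the median was 0.02 and 18 of 35 genes were higher. In that fit of 4 libraries Ivl, Tgm1, Sprr2h and Sprr2a3 were called, with log2 fold changes of 1.89, -0.80, -0.60 and -0.64, beside 4.22% of all genes. Leaving out the libraries numbered 2 in their place left 0 envelope genes called, beside 0% of all genes, and leaving out those numbered 3 also left 0, beside 0.00715%.

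**Figure D2:**
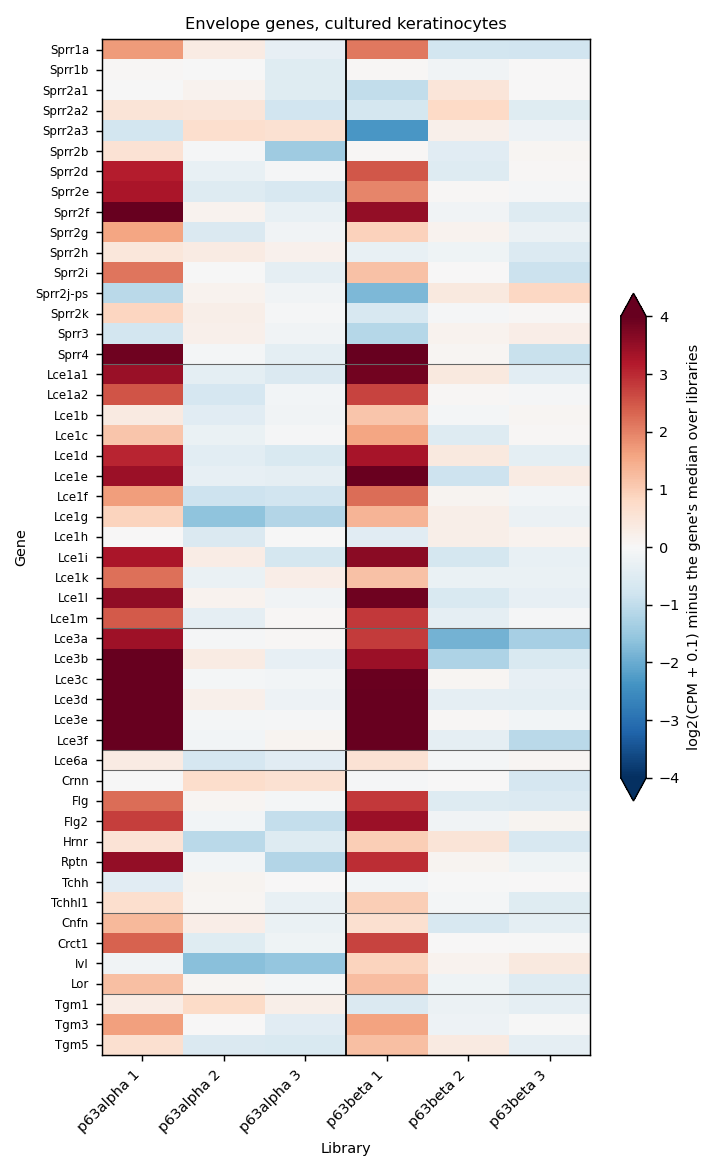
Level of the 50 envelope genes (rows, by family) in the 6 keratinocyte libraries (columns), as log2(CPM + 0.1) minus each gene's median over the libraries, with differences beyond 4 drawn in the end colours. The 2 columns numbered 1, 1 in each genotype, are red for most Lce and fused S100 rows. They are also red for Sprr2d, Sprr2e, Sprr2f, Sprr2g and Sprr2i, but not for most other Sprr2 rows. Ivl and Tgm1 differ by genotype.

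In newborn epidermis, where these genes are abundant, no envelope gene passed the test either, though most leaned higher in p63beta. All 50 genes of the table were tested and 0 were called by edgeR's quasi-likelihood test (lowest adjusted p = 0.9999), beside 0.232% of all 13796 genes tested. At an unadjusted p under 0.05 there were 2 genes, Cnfn and Sprr1a, beside 4.64% of all genes. Of the 50, 43 were higher in p63beta and 7 lower, with a median log2 fold change of 0.32, against 49.3% higher and a median of -0.00 over all genes. For no envelope gene were the groups apart, beside 3.07% of all genes. DESeq2 and the authors' deposited table also called 0 of the 50, beside 1.02% and 0.896% of their genes. The simulated test recovered 25% of genes changed 2-fold and 72% of those changed 4-fold here, so changes of the size seen in many of these genes could be missed.

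**Figure D3:**
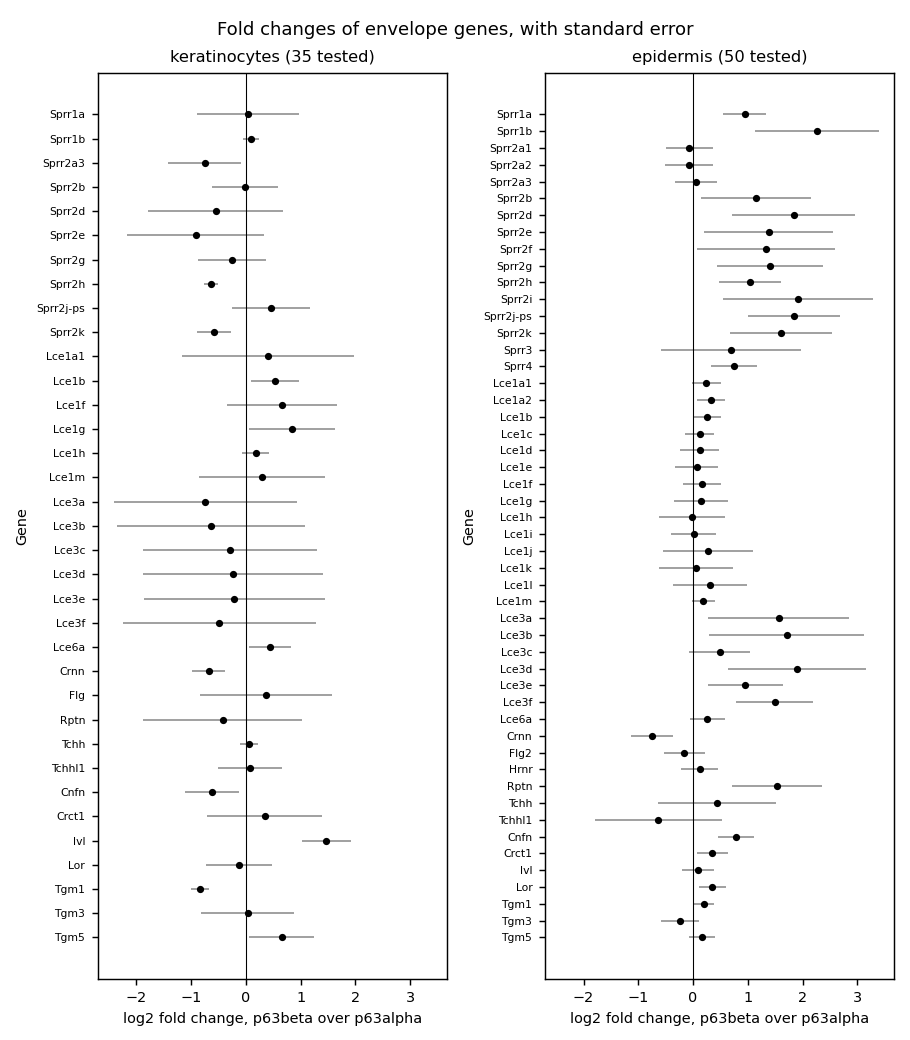
Log2 fold change of p63beta over p63alpha (horizontal axis) with its standard error (line) for the tested envelope genes, 35 in keratinocytes and 50 in epidermis, ordered by family. The lines of most Sprr2 and Lce3 genes are long in both panels, and in epidermis 43 of the 50 points lie to the right of 0.

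The envelope's main structural proteins had overlapping groups in epidermis, and 0 were called. Values for epidermis are given in the order EP07, EP08, EP09 and WT3 for p63alpha and EP10, EP11, EP12 and KO2 for p63beta. Lor, at 9472 TPM on average the envelope gene with the highest length-scaled level, had 9213, 9511, 6279 and 9714 CPM in p63alpha and 7896, 9836, 10619 and 15791 CPM in p63beta (log2 fold change 0.35 ± 0.25 SE). EP09 was the lowest library and KO2 the highest, and the other 6 spanned 7896 to 10619 CPM. Without KO2 the fold change was 0.12 on the log2 scale. Ivl had 462, 629, 292 and 758 CPM against 594, 468, 744 and 472 CPM (log2 fold change 0.09 ± 0.28 SE), so the groups covered much the same range. Crct1 had 685, 753, 502 and 1025 CPM against 601, 780, 1091 and 1312 CPM, with overlapping groups. Cnfn stood at 303, 336, 189 and 359 CPM in p63alpha and at 373, 424, 336 and 909 CPM in p63beta. Apart from EP12, its p63beta libraries were above every control, and the log2 fold change of 0.78 ± 0.33 (SE) had an unadjusted p of 0.0387. It was 0.34 without KO2.

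Of the cross-linking enzymes, Tgm1 and Tgm5 varied less between libraries than Tgm3. Tgm1 had 400, 409, 270 and 365 CPM in p63alpha and 384, 461, 331 and 484 CPM in p63beta (log2 fold change 0.20 ± 0.19 SE). Tgm3 had 226, 192, 135 and 350 CPM against 271, 234, 160 and 98.8 CPM (log2 fold change -0.24 ± 0.35 SE), with WT3 the highest and KO2 the lowest. Its log2 fold change turned to 0.0492 without WT3. Tgm5 spanned 45.8 to 86.9 CPM over all 8 libraries, with overlapping groups.

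The Sprr genes had wide fold changes and wider spreads. Sprr1b, the Sprr gene with the highest level (1206 TPM), had 235, 403, 70.7 and 10.4 CPM in p63alpha and 739, 1116, 53.8 and 1523 CPM in p63beta. Of its p63beta libraries, 3 were above all 4 controls and EP12 was below 3 of them, giving a log2 fold change of 2.26 ± 1.13 (SE) with an unadjusted p of 0.0786. Without KO2 the fold change was 1.83 and without EP12 2.65. Sprr1a had 228, 145, 232 and 59.3 CPM against 260, 438, 205 and 372 CPM (log2 fold change 0.94 ± 0.40 SE, unadjusted p of 0.0388). Here too EP12 alone of the p63beta libraries fell among the controls. Sprr2h had 95.6, 112, 26.7 and 16.8 CPM against 130, 167, 73.5 and 144 CPM (log2 fold change 1.03 ± 0.57 SE). Sprr2d was at 122, 99.4, 22.9 and 6.05 CPM against 108, 126, 20.2 and 640 CPM, so KO2 set it apart. Sprr2i (0.0334 to 4.17 CPM in p63alpha and 0 to 11.02 CPM in p63beta) and Sprr2j-ps (0.1002 to 1.13 and 0.173 to 4.13 CPM) were scarce. In all, 14 of 16 Sprr genes were higher in p63beta, with a median log2 fold change of 1.24, and the 2 lower ones were Sprr2a1 and Sprr2a2. The median was 0.84 without KO2, 0.86 without WT3, 1.07 without EP09, 1.63 without EP12 and 0.51 among the EP libraries alone.

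The Lce1 genes with the highest levels had smaller fold changes than the scarcer Lce3 genes. Lce1m, the Lce gene with the highest level (3614 TPM), had 1535, 1666, 1181 and 1716 CPM in p63alpha and 1348, 1460, 2324 and 1823 CPM in p63beta (log2 fold change 0.19 ± 0.21 SE). Lce1a1 had 1006, 1141, 666 and 589 CPM against 896, 923, 790 and 1410 CPM, and Lce1c had 966, 922, 578 and 408 CPM against 743, 802, 725 and 848 CPM. Both were thus lowest in WT3 and EP09. Of the 14 Lce1 genes 13 were higher in p63beta, with a median log2 fold change of 0.16, and Lce1h was the other, at -0.02. That lean rested on single libraries: without WT3 5 of 14 were higher, without KO2 7 of 14, and among the EP libraries alone 1 of 14, with a median of -0.26. All 6 Lce3 genes were higher, with a median of 1.53, which was 1.13 without KO2, 1.16 without WT3, 1.25 without EP09, 1.91 without EP12 and 0.76 among the EP libraries alone. Lce3f had 4.76, 5.46, 2.19 and 0.735 CPM against 6.80, 12.6, 1.69 and 15.98 CPM (log2 fold change 1.49 ± 0.70 SE), or 1.1 without KO2 and 1.84 without EP12. Lce3d (9.99, 4.66, 0.380 and 0.367 against 8.02, 22.3, 0.389 and 26.7 CPM) fell into high and low libraries within both genotypes. Lce3a and Lce3b were at or near 0 in EP09, WT3 and EP12 and reached 3.34 and 4.46 CPM in KO2.

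The fused S100 genes did not move as 1 block. Hrnr had 1580, 1764, 1598 and 3310 CPM in p63alpha and 1409, 1502, 2884 and 3166 CPM in p63beta (log2 fold change 0.12 ± 0.34 SE), with WT3, EP12 and KO2 about level and high. Flg2, a filaggrin relative, had 1281, 1079, 712 and 877 CPM against 718, 892, 1555 and 366 CPM (log2 fold change -0.16 ± 0.38 SE). Rptn was at 233, 204, 118 and 15.96 CPM against 342, 542, 74.0 and 690 CPM (log2 fold change 1.53 ± 0.82 SE), the same order of libraries as Sprr1b except for EP07 and EP08. Crnn had 12.7, 8.23, 13.9 and 4.74 CPM against 6.19, 7.25, 6.96 and 3.22 CPM, with overlapping groups. Tchh ran opposite to the Sprr genes, at 65.0, 18.7, 360 and 200 CPM in p63alpha and 44.0, 77.3, 683 and 63.4 CPM in p63beta (log2 fold change 0.43 ± 1.08 SE). EP09, WT3 and EP12 were its 3 highest libraries, and without EP12 the fold change was -1.39. Tchhl1, its neighbour, was at 31.3 CPM in EP09 and at or under 9.82 CPM elsewhere. The summed level of 16 hair root sheath and cortex markers was 752 CPM in EP09 and 81.5 to 199 CPM in the other 7 libraries, and its part in the Tchh values was not tested.

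In epidermis the same 3 libraries, from both genotypes, were the lowest for most envelope genes. For 31 of the 50, EP09 and WT3 of p63alpha and EP12 of p63beta were the 3 lowest of the 8 libraries, a pattern held by 5.57% of all genes. It held for 12 of 14 Lce1, 6 of 6 Lce3 and 10 of 16 Sprr genes. For 1 gene, Tchh, they were the 3 highest. Of the 3 low libraries 2 are p63alpha, and KO2, the highest library for 21 genes, is p63beta. The median log2 fold change was 0.17 without KO2 (39 of 50 genes higher), 0.21 without EP09 (41 of 50), 0.29 without WT3 (38 of 50) and 0.41 without EP12 (40 of 50). The 10 basal markers summed to 9512 CPM in WT3 and 8875 CPM in EP12, the 2 lowest, but to 16302 CPM in EP09, within the 13841 to 20609 CPM of the other 5. Their part in the pattern was not tested.

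The column names fall into 2 series, EP07 to EP12 with 3 libraries per genotype and WT3 and KO2 with 1 each. Within the EP libraries 35 of 50 envelope genes were higher in p63beta, with a median log2 fold change of 0.27. Between WT3 and KO2, KO2 was higher for 40 of 50 genes, with a median log2 ratio of 1.67, which has no replicate. With the series as a term in the fit, 43 of 50 genes were higher, with a median of 0.30.

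**Figure D4:**
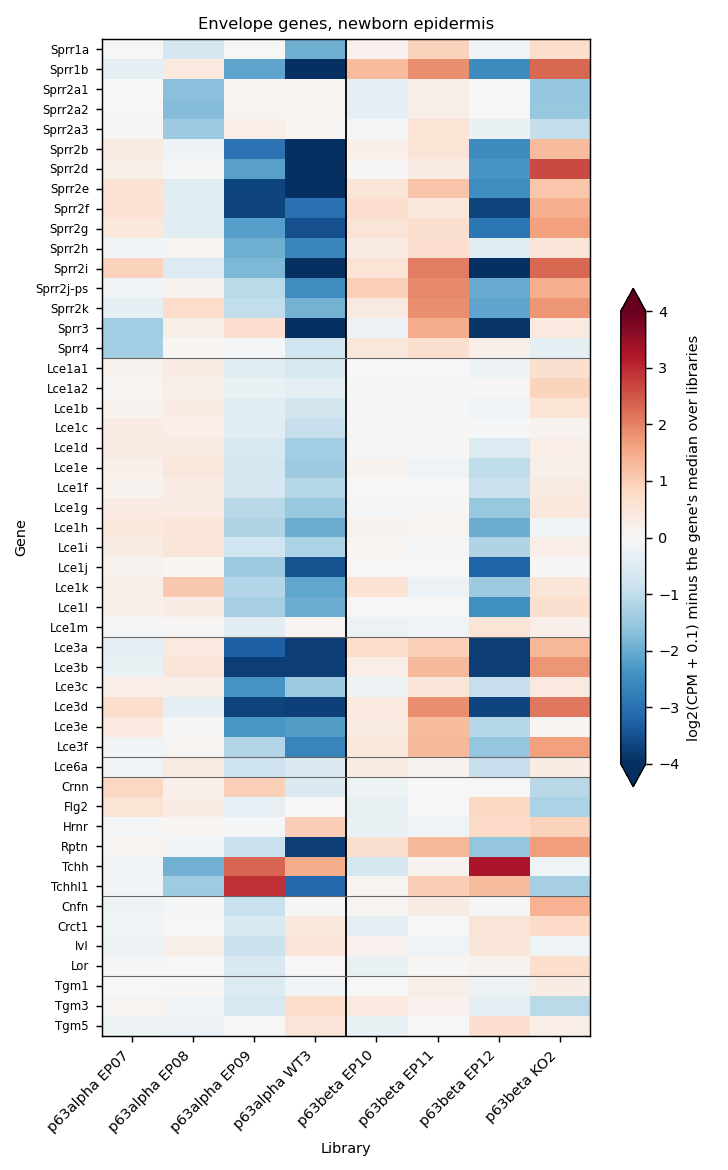
Level of the 50 envelope genes (rows, by family) in the 8 epidermis libraries (columns), as log2(CPM + 0.1) minus each gene's median over the libraries, with differences beyond 4 drawn in the end colours. EP09, WT3 and EP12 are blue across most Sprr2, Lce1 and Lce3 rows and red for Tchh.

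The spread of the Lce genes between epidermis libraries changed along the chromosome. From Lce1a1 to Lce1c, the highest library was 2.37 to 2.44 times the lowest, and mean levels were 1843 to 2704 TPM. Further along, from Lce1j to Lce1l, the ratio was 8.64 to 12.3 and levels were 265 to 665 TPM. Among the Lce3 genes that follow, Lce3c had a ratio of 7.17, Lce3e 12.4, Lce3f 21.7 and Lce3d 72.7, while Lce3a and Lce3b were at 0 in at least 1 library. Lce1m, which lies beyond the Lce3 genes, had the lowest ratio of the cluster (1.97) and its highest level. Genes with lower levels mostly had wider spreads, with Lce6a, the first in the order, as an exception at 345 TPM and a ratio of 2.46. Lce1j had 150, 146, 49.5 and 12.2 CPM in p63alpha and 137, 137, 14.9 and 143 CPM in p63beta, so its low libraries were well above the floor of 3 counts. Its 3 low libraries were WT3, EP12 and EP09.

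**Figure D5:**
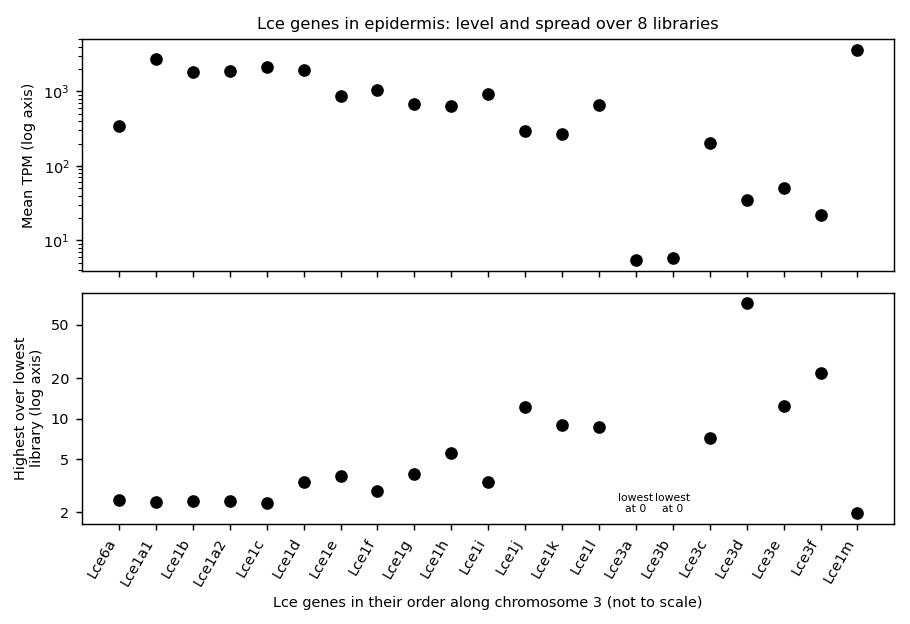
Mean TPM over the 8 epidermis libraries (upper panel, log axis) and the ratio of the highest to the lowest library in CPM (lower panel, log axis) for the Lce genes in their order along chromosome 3, spaced evenly. Ratios are near 2.4 from Lce6a to Lce1c, reach 72.7 at Lce3d and are 1.97 at Lce1m, and 2 genes have no ratio because a library was at 0.

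Between the 2 systems, the difference of the genotype effects was tested with an interaction term over 49 envelope genes. By edgeR 0 were called, and 0% of all 14741 genes were. At an unadjusted p under 0.05 there were 4, beside 4.22% of all genes. They were Ivl, Tgm1, Sprr2h and Cnfn. The epidermis effect minus the keratinocyte effect was -1.37 ± 0.54 (SE, unadjusted p of 0.0242) for Ivl, 1.05 ± 0.27 (unadjusted p of 0.00188) for Tgm1 and 1.70 ± 0.72 (unadjusted p of 0.0333) for Sprr2h, each with an adjusted p = 0.999994. Thus Ivl was higher in p63beta in culture and nearly level in epidermis, while Tgm1 and Sprr2h were lower in culture and higher in epidermis, and after adjustment over all genes these differences were not shown. Of the 34 genes tested in both systems, 13 were higher in p63beta in both, 1 (Crnn) was lower in both, 17 were lower in culture and higher in epidermis, and 3 the reverse.

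Other genes of terminal differentiation gave few calls. Among 25 regulators tested in keratinocytes, 10 were higher, with 0 called and a median log2 fold change of -0.05. Zfp750, a transcription factor that drives late differentiation, had 215, 337 and 247 CPM in p63alpha and 125, 163 and 146 CPM in p63beta, without overlap (log2 fold change -0.88 ± 0.19 SE, adjusted p = 0.360). Over all genes, 5.8% were lower without overlap. Barx2, a homeobox factor, was at 16.6, 56.2 and 37.3 CPM against 18.0, 22.6 and 19.2 CPM. Of the 21 genes for the envelope's scaffold and lipid layer, 7 were higher (median -0.11), and Ppl, periplakin, had 426, 599 and 439 CPM against 266, 365 and 341 CPM. Of 26 granular layer genes, 11 were higher (median -0.10), and of 10 spinous genes 2 (median -0.20), where Notch3, a receptor of suprabasal commitment, had 69.7, 94.2 and 63.9 CPM against 46.0, 36.9 and 40.8 CPM. Of 10 basal genes 7 were higher (median 0.30). Among 16 other genes of the differentiation complex 7 were higher. S100a3, a calcium-binding protein, was the 1 gene called in all these lists, beside 0.101% of all genes. It had 5.90, 5.41 and 4.71 CPM in p63alpha and 17.6, 24.0 and 23.1 CPM in p63beta (log2 fold change 2.01 ± 0.17 SE, adjusted p = 0.0297).

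In epidermis none of these lists held a called gene, beside 0.232% of all genes called. The genes of the differentiation complex outside the group leaned higher in p63beta (13 of 16, median 0.40), as did granular layer genes (24 of 29, median 0.14), regulators (17 of 25, median 0.18) and basal genes (8 of 10, median 0.13). Scaffold and lipid genes had 13 of 21 higher (median 0.07) and spinous genes 4 of 10 (median -0.03). S100a8 and S100a9, which form calprotectin, were at 3.12, 1.09, 0.928 and 0 CPM against 7.16, 13.7, 0.130 and 7.003 CPM, and at 7.05, 3.89, 2.45 and 0.401 CPM against 17.3, 33.0, 0.346 and 17.5 CPM. EP12 and WT3 were their lowest libraries, as for Sprr1b. Jun, a subunit of AP-1, was at 613, 290, 133 and 431 CPM against 443, 777, 347 and 1424 CPM. Among other cell types, all 7 melanocyte markers were higher in p63beta (summed 120 to 267 CPM in p63alpha and 316 to 478 CPM in p63beta) and all 16 hair markers lower. The hair direction rested on EP09: their sum was 132, 107, 752 and 81.5 CPM in p63alpha and 112, 149, 178 and 199 CPM in p63beta. Without EP09, 13 of the 16 were higher in p63beta, and their median log2 fold change went from -0.60 to 1.52. Summed fibroblast markers were at 348 to 604 CPM, muscle at 9.72 to 29.1 CPM, endothelium at 0.568 to 1.72 CPM and immune cells at 20.98 to 106 CPM. In keratinocytes, summed melanocyte markers were at 453 to 1616 CPM, fibroblast at 68.9 to 264 CPM, endothelium at 4.78 to 33.9 CPM and immune cells at 6.97 to 60.9 CPM. What these cells contribute to the envelope genes was not tested.

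Some members cannot be told apart by their reads. Of the 51 genes, 23 share more than 10% of their transcript stretches of 50 bases with another member. For Sprr2a1 and Sprr2a2 the share is over 96%, and the estimated counts in epidermis were nearly equal for both (186 and 186 CPM in EP07, 57.5 and 55.6 CPM in EP08), so their split is uncertain. In keratinocytes, where pairs mapping to several places were not counted, both stayed at or under 0.475 CPM, which is no measure of their level. Sprr2a3 shares 61.1% with Sprr2a1, so its keratinocyte values are less certain too. Lce3d, Lce3e and Lce3f share 43.7% to 49.3%, so their levels are less certain than those of Ivl, Tgm1, Sprr1a, Sprr1b and Sprr2h, which share none.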

How the data were processed

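The libraries were made with a stranded mRNA kit, per the labels' protocols. The authors deposited keratinocyte data as counts of read pairs, summed per gene with featureCounts 1.5.2 on mm10 RefSeq exons (strand setting 2, both ends mapped, minimum overlap 25 bases) from STAR alignments, per the file headers. The authors also deposited FPKM values, which were recomputed from the counts and lengths to within rounding. For epidermis the authors deposited expected counts and TPM per gene from salmon, per the submitters' processing notes. Deposited DESeq2 tables give log2 fold changes and adjusted p-values. The versions of salmon and DESeq2 behind them are not given in the sources used here. Epidermis columns named WT and KO were read as p63alpha and p63beta, as the keratinocyte header pairs these words with the genotypes. Their names carry no replicate number. The 14 columns of values per library in the DESeq2 results were not used, and 1 keratinocyte row without a gene was left out.

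Expected counts were rounded. Each system had its own fit in edgeR 4.0.16 (R 4.3.3, TMM, filterByExpr by group, robust quasi-likelihood F test, Benjamini-Hochberg over all genes tested, called under 0.05), as tested on simulated counts, and both together for the interaction. CPM use TMM-scaled library sizes. Alternatives were RLE size factors, no filter, DESeq2 1.42.0, no robust estimation, limma 3.58.1 on log2 FPKM or TPM plus 1 or 0.1, each library left out, the replicate number as a block and the naming series. For the keratinocyte libraries, deviations from the group means of same-numbered libraries correlated at 0.558, 0.491 and 0.173 over 12720 genes (different numbers -0.503 to 0.158). For number 3 the value of 0.173 was close to the 0.158 and 0.144 between numbers 2 and 3, so its pairing is not shown. Deviations within a group cancel out, so these correlations depend on each other. The members and the 14 lists of other genes were chosen with earlier results of these data known. Genes described singly are those outside the Sprr and Lce families, and, of each of these, the 3 highest in level, the 3 with the largest rise and the 3 with the largest fall, plus per list any called gene and otherwise the largest changes, of which the text gives examples. Protein identity was not analysed here.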

Additional observations from a re-analysis of the deposited data

Results flagged for a closer look

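In epidermis, 100 groups of 4 libraries were searched for a library far from the other 3, and 10 were found, where chance gives about 1 in 20. The genes share their libraries, so the groups are not independent. Over all tested genes of the epidermis, 7.6% of groups held such a library. KO2 of p63beta held 3 of them. Cnfn was at 909 CPM there, against 336 to 424 CPM in the other 3 p63beta libraries, Lce1a2 at 1117 against 571 to 621 CPM, and Sprr2d at 640 against 20.2 to 126 CPM. In EP12, the other p63beta library concerned, Lce1j was low at 14.9 CPM against 137 to 143 CPM, and Tchh was high at 683 against 44.0 to 77.3 CPM.

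Among the p63alpha libraries, EP09 was low in Lor, at 6279 CPM against 9213 to 9714 CPM, and high in Tchhl1, at 31.3 against 0.367 to 3.67 CPM. WT3 had Hrnr at 3310 CPM, against 1580 to 1764 CPM. EP08 was low in the near-identical pair Sprr2a1, at 57.5 against 186 to 199 CPM, and Sprr2a2, at 55.6 against 186 to 199 CPM, which count as 1 observation because their reads are shared. The keratinocyte groups of 3 libraries were not searched.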

How the results depend on the processing

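Counts of called genes moved with the method, and 0 envelope genes stayed the count in most settings. In keratinocytes the 14 genes called became 223 with DESeq2 (3 envelope genes) and 1 to 4 with a library left out (0 envelope genes). With the replicate block 37 genes were called, or 585, 0 and 1 without both libraries numbered 1, 2 and 3, with 4 envelope genes in the first of these fits. The block changed no other call. In epidermis the 32 genes called became 141 with DESeq2, 8 with the EP libraries alone and 10 to 28 with a library left out. No paired analysis was possible because the epidermis columns carry no replicate number.

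Of 445 refits of single genes, 405 kept direction and side of the threshold, 7 passed it (Ivl, Tgm1 and Sprr2h with DESeq2, and these and Sprr2a3 in the block without number 1) and 33 turned direction, all of fold changes not called. With a keratinocyte library left out, the log2 fold change ran from -1.17 to 1.80 for Crct1, -2.94 to 2.62 for Lce3c, -0.88 to 0.38 for Lor, -1.58 to 0.80 for Sprr1a, -0.0561 to 0.173 for Sprr1b and -0.13 to 0.17 for Tchh. Sprr1a was -0.37 and -0.38 with limma, -0.37 with the replicate block and -0.756, -0.021 and -0.339 in the block without numbers 1, 2 and 3. In such fits Sprr1b was -0.0751 without number 3 and Tchh -0.0727 without number 1. With an epidermis library left out, it ran from -0.586 to 0.0915 for Flg2, -0.10 to 0.44 for Hrnr, -0.11 to 0.31 for Ivl, -1.39 to 1.20 for Tchh and -0.46 to 0.0492 for Tgm3. The EP libraries alone gave 0.0427 for Flg2 and 0.26 for Tgm3, and limma -0.00304 and -0.00316 for Hrnr. The cause was not tested. Medians of the envelope genes ran from -0.77 to 0.93 in keratinocytes and from 0.17 to 0.48 in epidermis with a library left out. In every such fit of Ivl, Tgm1 and Sprr2h in keratinocytes the direction held, with adjusted p from 0.0912 to 0.999.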
